A study of Mus musculus with 6 samples.

Results

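The genes described here are 10 members of the NRF2 antioxidant system, picked by symbol out of the 22609 mouse genes listed with a read count in every sample. They are Nfe2l2, Keap1, Nqo1, Hmox1, Gclc, Gclm, Txnrd1, Srxn1, Slc7a11 and Gsr, and all 10 were found in the files and passed the filter on low counts. They were measured by RNA-Seq in primary white adipocytes, grown from the stromal vascular cells of the inguinal fat (iWAT) of male C57BL6 mice aged 3 weeks by the labels and differentiated in culture. The 3 control samples were compared with 3 samples that overexpressed miR-182-5p (miR182), to ask which transcripts differ when the miRNA is raised in the fat cell itself. The labels name electroporation and a control vector, whereas the methods describe a synthetic mimic and a mimic control delivered with a lipid reagent and give another age. No allele was altered in either group, and neither source says whether the 3 samples of a group came from separate mice or separate cultures, so the p-values measure the spread between these samples, which may be technical. The libraries were made from poly(A) RNA, which leaves out the mature miRNA, and the Mir182 gene held 0 reads in every sample, so the counts do not show how far the miRNA was raised.

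NRF2, the protein made from Nfe2l2, is a transcription factor that is bound by KEAP1 in unstressed cells and handed to a ubiquitin ligase for degradation. Oxidants and electrophiles modify cysteines of KEAP1, NRF2 then escapes, pairs with a small MAF protein and binds antioxidant response elements beside genes for glutathione synthesis, the thioredoxin cycle, quinone reduction and heme breakdown. Because this switch acts on the NRF2 protein, the level of the Nfe2l2 transcript is not a measure of NRF2 activity. In fat cells the system is known both for detoxifying the products of lipid oxidation and for effects on adipocyte differentiation.

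Reads counted on genes came to between 25869810 and 26484794 in control and to between 25960631 and 28796712 in miR182. The first principal component of all 13117 genes tested took 65.1% of the variance and separated the groups, and on the second (11.8%) miR182 replicate 1 lay at -13.1 against 7.60 and 7.35 for the other miR182 samples. Adipocyte transcripts were abundant, with Fabp4 at 3316 counts per 1000000 reads on genes (CPM) and Lpl at 6275 CPM in control, and so were those of fibroblasts and adipocyte progenitors, with Col1a1 at 19248 CPM. The cultures were therefore not adipocytes alone by their markers, and in bulk samples fewer cells of a type and less RNA per cell cannot be told apart. Markers are called here at adjusted p under 0.05 (edgeR), by which 23.2% of all genes tested rose and 23.5% fell. The 11 adipocyte markers summed to between 13147 and 13925 CPM in control and to between 9085 and 10287 CPM in miR182, and 8 of them fell and 1 (Lep) rose. Of the 8 tested markers of fibroblasts and progenitors 6 fell and 1 (Thy1) rose, and the list summed to between 40345 and 42161 CPM in control and to between 35398 and 36601 CPM in miR182. Markers of smooth muscle and pericytes summed to between 3476 and 3647 CPM in control and to between 4145 and 4512 CPM in miR182. Acta2 and Tagln made up most of these sums, and both rose, as did Cnn1. Notch3 on the same list fell (log2 fold change -0.38, SE 0.053, adjusted p = 4.94e-05, edgeR). Myh11 did not pass, and Rgs5 had at most 9 reads per sample and was not tested. The part of these shifts in the differences described here was not tested. The 10 macrophage markers summed to between 15.0 and 16.1 CPM in control and between 12.8 and 16.3 CPM in miR182, with at most 9 reads per sample for Emr1, Itgam, C1qa, C1qb, Mrc1 and Ptprc. Most of the control sum came from Csf1r (6.08 CPM) and Cd68 (5.64 CPM), which did not pass. Cd14 did not pass either, and Lyz2 fell on 18 to 34 reads per sample (log2 fold change -0.63, SE 0.22, adjusted p = 0.0324, edgeR). The 6 endothelial markers summed to between 8.13 and 9.27 CPM in control and between 5.09 and 5.74 CPM in miR182, with Cldn5 at 0 reads. Tek made up most of the control sum and fell on 62 to 176 reads per sample (log2 fold change -1.31, SE 0.13, adjusted p = 1.49e-06, edgeR), whereas Cdh5 and Kdr did not pass. The 7 muscle markers summed to between 25.6 and 27.0 CPM in control and between 35.6 and 39.2 CPM in miR182. Nearly all of this came from Acta1 and Des, with Ckm, Myh4 and Myod1 at 0 reads. Acta1 rose (log2 fold change 0.73, SE 0.061, adjusted p = 3.38e-07, edgeR), whereas Des did not pass.

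The miRNA itself is shown first, because its seed (bases 2 to 8, in capitals) defines the 7-base site that was looked for. It is printed 5′ to 3′ as RefSeq gives it on GRCm38.p6, at chr6:30165962-30165986 on the minus strand. The sequence that the study's methods give for this miRNA is another one, with another seed, and which of them the transfected molecule carried is not given in the labels.
mmu-miR-182-5p: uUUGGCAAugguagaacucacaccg
The matching site, TTGCCAA on the transcript's strand, was looked for in the longest 3′-UTR of each gene in GENCODE M21. It was present in 1 of the 10 genes, against 14.1% of the 11443 tested genes that have a 3′-UTR there. That gene was Txnrd1, the cytosolic thioredoxin reductase, where the site starts at base 19 of a 3′-UTR of 1667 bases and stands in capitals in the 30 bases shown.
Txnrd1 3′-UTR: tgtggatgctgTTGCCAAgactacagacca
The 3′-UTR of Nfe2l2 (448 bases), that of Keap1 (972 bases) and that of Slc7a11 (7364 bases) held no such 7-base match. Outside Txnrd1, the site without its first base (TGCCAA) matched 1 time in Slc7a11, 1 time in Srxn1 and 2 times in Gclm. It was absent from the 3′-UTRs of Nfe2l2, Keap1, Nqo1, Hmox1, Gclc and Gsr. How common this shorter match is over all genes was not counted. Other parts of the transcripts were not searched for it, although the paper places its Nr1d1 site in the 5′-UTR.

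Promoters were also searched, since antioxidant response elements are the sites NRF2 is known for. RefSeq windows on GRCm38.p6, from 250 bases before to 50 bases after a start site, were found for 7 of the 10 genes (9 windows), and Hmox1, Gclc and Gsr had no entry. The core of the antioxidant response element, TGACNNNGC on either strand, stood in 4 of these 9 windows and in 12.4% of all 32851 windows of the same length. Each match is shown with its fixed letters in capitals, written along the gene's own strand. A core on the other strand therefore reads backwards, with GC first and GTCA last. No match overlapped another motif searched.
Nfe2l2 (chr2:75704884-75704913, minus): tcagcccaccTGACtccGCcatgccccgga
Gclm (chr3:122245413-122245442, plus): gctcccgggcGCaccGTCAactctcacgag
Srxn1 (chr2:152105542-152105571, plus): gcagtgggcaGCtagGTCAgagtgagacac
Txnrd1, second start site (chr10:82859104-82859133, plus): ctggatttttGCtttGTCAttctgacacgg
The Srxn1 window also held 2 AP-1 sites, TGACTCA, a motif present in 5.2% of all windows. The Slc7a11 window held no antioxidant core but held 2 copies of the amino acid response element TGATGCAA, a motif that ATF4 and its relatives are known to bind and that was present in 0.895% of all windows. Both copies, one on each strand and between 66 and 40 bases before the start site, are in capitals in the 30 bases below.
Slc7a11 (chr3:50443651-50443680, minus): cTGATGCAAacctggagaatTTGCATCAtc
Such letters describe these windows only. Neither binding nor use of a site was measured in these cells.

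Most of the 10 genes were modestly higher when miR-182-5p was overexpressed. By adjusted p under 0.05 in edgeR's quasi-likelihood test, 7 of the 10 rose, 1 fell (Nfe2l2) and 2 (Keap1 and Nqo1) did not pass, whereas of all genes tested 23.2% rose and 23.5% fell. Only Slc7a11, the cystine importer, also passed the study's cutoff of a 1.5-fold change, which 1.97% of all genes passed upward and 5.48% downward, and none of the 10 passed it downward. The median log2 fold change of the 10 was 0.21, beside -0.0043 over all genes tested. The miR182 and control values did not overlap for any of the 10, with 9 genes higher and 1 lower in all 3 miR182 samples, and of all genes 27.3% were higher and 27.5% lower in this way. For a single gene an exact two-sided permutation test over 3 against 3 samples cannot go below p = 0.1, which was the value for each of the 10. Counts of the 10 ran from 355 to 9007 per sample and the standard errors of their log2 fold changes from 0.027 to 0.063.

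**Figure D1:**
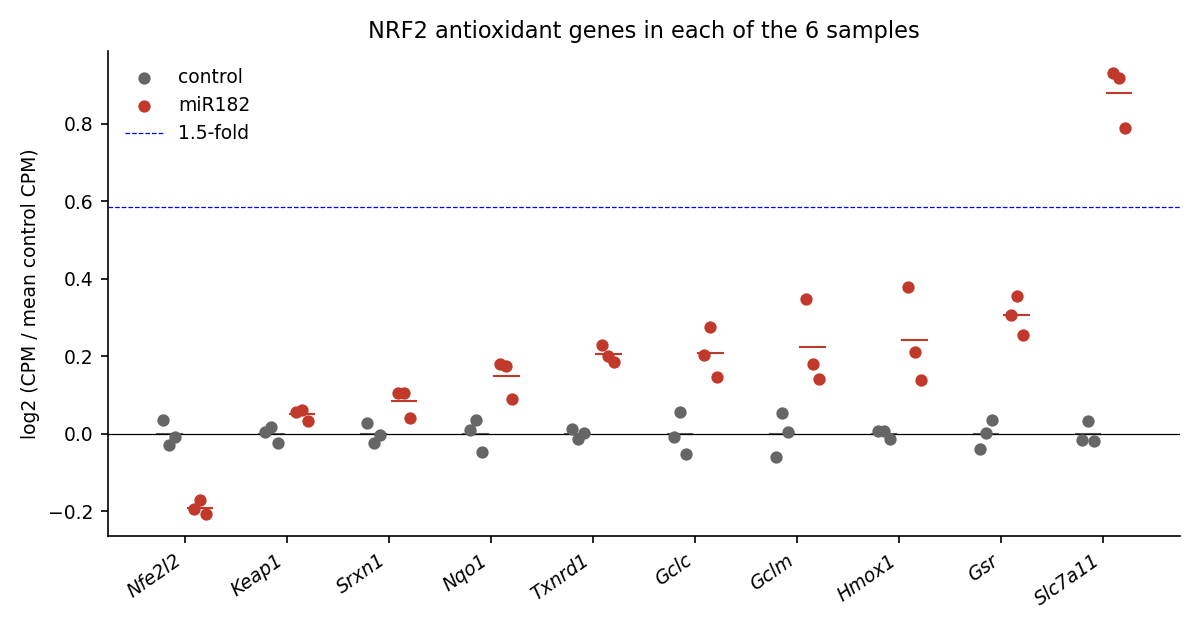
NRF2 antioxidant genes in each sample, as log2 of the CPM over the mean control CPM (y axis), with grey points for the 3 control samples, red points for the 3 miR182 samples, a short line at each mean, and a dashed line at 1.5-fold. Slc7a11 stands alone above the dashed line, Nfe2l2 is the one gene below the controls, and Hmox1 and Gclm have the widest spread among the miR182 samples.

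The regulators moved least or in the other direction. Nfe2l2 (ENSMUSG00000015839, chr2:75675513-75704641 on GRCm38) stood at 149.6, 143.2 and 145.1 CPM in control and at 127.7, 129.7 and 126.4 CPM in miR182. All 3 miR182 samples were below all controls, and the transcript was 1.14-fold lower (log2 fold change -0.19, SE 0.029, adjusted p = 0.000104, edgeR). Keap1 (ENSMUSG00000003308, chr9:21229730-21239361), the sensor that holds NRF2 back, stood at 67.5, 68.2 and 66.2 CPM in control and at 70.0, 70.2 and 68.9 CPM in miR182. Although these values did not overlap, the difference of 0.051 on the log2 scale (SE 0.034) did not pass (adjusted p = 0.248, edgeR). Of the 4693 exon bases of Keap1 in GENCODE M21, 510 are shared with an antisense gene (Gm16754), and whether counting used the strand is not given in the sources used here. The number of Keap1 reads per Nfe2l2 read, a ratio within one sample that does not depend on the scaling between samples, lay between 0.451 and 0.476 in control and between 0.541 and 0.548 in miR182.

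Slc7a11 (ENSMUSG00000027737, chr3:49892526-50443614), the light chain of the cystine/glutamate exchanger that brings in the cysteine for glutathione, had the largest change of the 10. Its reads numbered 560, 594 and 573 in control and 1238, 1108 and 1085 in miR182. As CPM these were 22.0, 22.7 and 22.0 against 42.4, 42.1 and 38.4, so the controls differed by less than 1 CPM and every miR182 sample was far above them. The change was 1.84-fold (log2 fold change 0.88, SE 0.054, adjusted p = 1.28e-08, edgeR), and Slc7a11 was at place 92 of 13117 from the top when all genes tested were ordered by fold change. Leaving out any one sample gave between 0.86 and 0.93 on the log2 scale, past 1.5-fold in each of the 6 cases. Tested against a change of 1.5-fold itself (glmTreat in edgeR), it still passed with adjusted p = 0.000567, and none of the other 9 genes did. There were 0.147 to 0.159 reads of Slc7a11 for each read of Nfe2l2 in control and 0.304 to 0.332 in miR182. Its partner Slc3a2, the heavy chain that carries the exchanger and other amino acid transporters to the membrane, rose from 229.8, 227.2 and 228.1 CPM to 285.3, 273.4 and 267.9 CPM (log2 fold change 0.27, SE 0.030, adjusted p = 4.55e-06, edgeR).

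**Figure D2:**
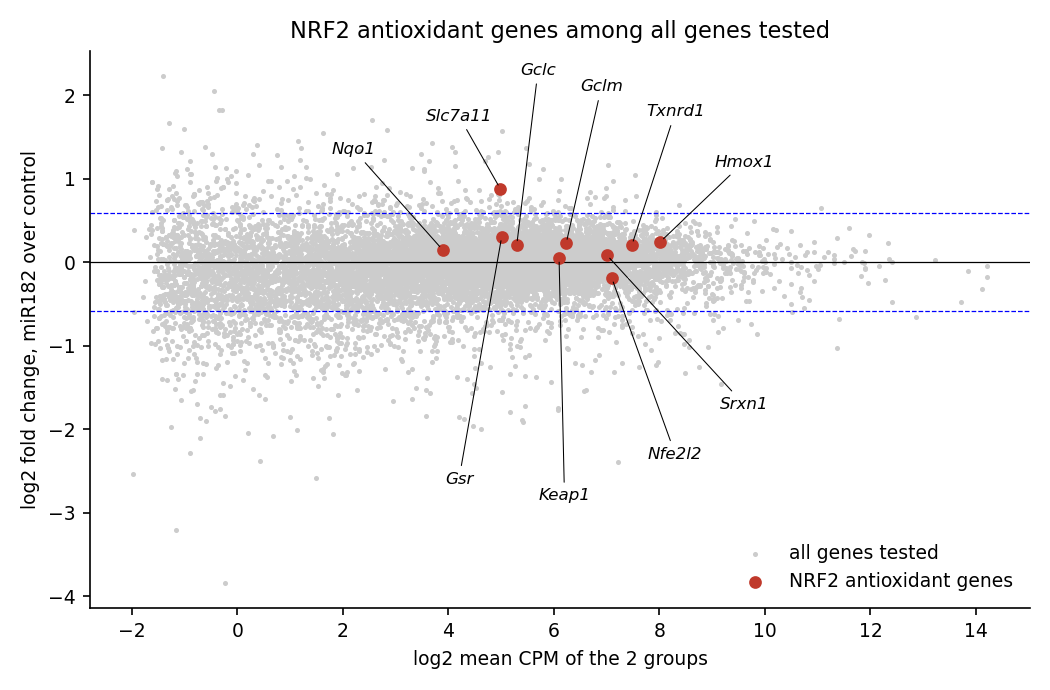
Log2 fold change, miR182 over control (y axis), against the log2 mean CPM of both groups (x axis) for the 13117 genes tested in grey, with the 10 NRF2 antioxidant genes in red and dashed lines at 1.5-fold. Apart from Slc7a11, the red points lie inside the band of small changes that most genes of similar level occupy.

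The enzymes that make and recycle glutathione followed at a smaller size. Glutamate-cysteine ligase sets the rate of glutathione synthesis and is built of a catalytic subunit, Gclc, and a modifier subunit, Gclm. Gclc (ENSMUSG00000032350, chr9:77754535-77794485) stood at 36.3, 37.9 and 35.2 CPM in control and at 41.9, 44.1 and 40.3 CPM in miR182 (log2 fold change 0.21, SE 0.050, adjusted p = 0.00346, edgeR). Gclm (ENSMUSG00000028124, chr3:122245557-122270732) stood at 66.5, 72.0 and 69.5 CPM in control and at 88.2, 78.6 and 76.4 CPM in miR182 (log2 fold change 0.23, SE 0.050, adjusted p = 0.00208, edgeR). Both subunits were higher in all 3 miR182 samples, and the reads of Gclc per read of Gclm overlapped between the groups (0.506 to 0.546 in control, 0.475 to 0.561 in miR182). For Gclm the highest value came from miR182 replicate 1, and without that sample the log2 fold change was 0.16 (adjusted p = 0.0039, edgeR). Of the 6291 exon bases of Gclm, 296 are shared with a gene on the other strand (Gm17494) and 244 with a pseudogene on its own strand (Gm6061). The enzyme of the next step, Gss, was at 47.2 ± 1.52 CPM in control and 46.6 ± 1.86 CPM in miR182 (SD, n = 3), with a log2 fold change of -0.018 that did not pass (adjusted p = 0.769, edgeR).

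Gsr (ENSMUSG00000031584, chr8:33652523-33698163), the reductase that returns oxidized glutathione to its reduced form with NADPH, had the second largest change of the 10. It stood at 28.0, 28.9 and 29.5 CPM in control and at 35.7, 36.9 and 34.4 CPM in miR182, and the groups were well apart. The change was 1.24-fold (log2 fold change 0.31, SE 0.049, adjusted p = 0.000162, edgeR).

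**Figure D3:**
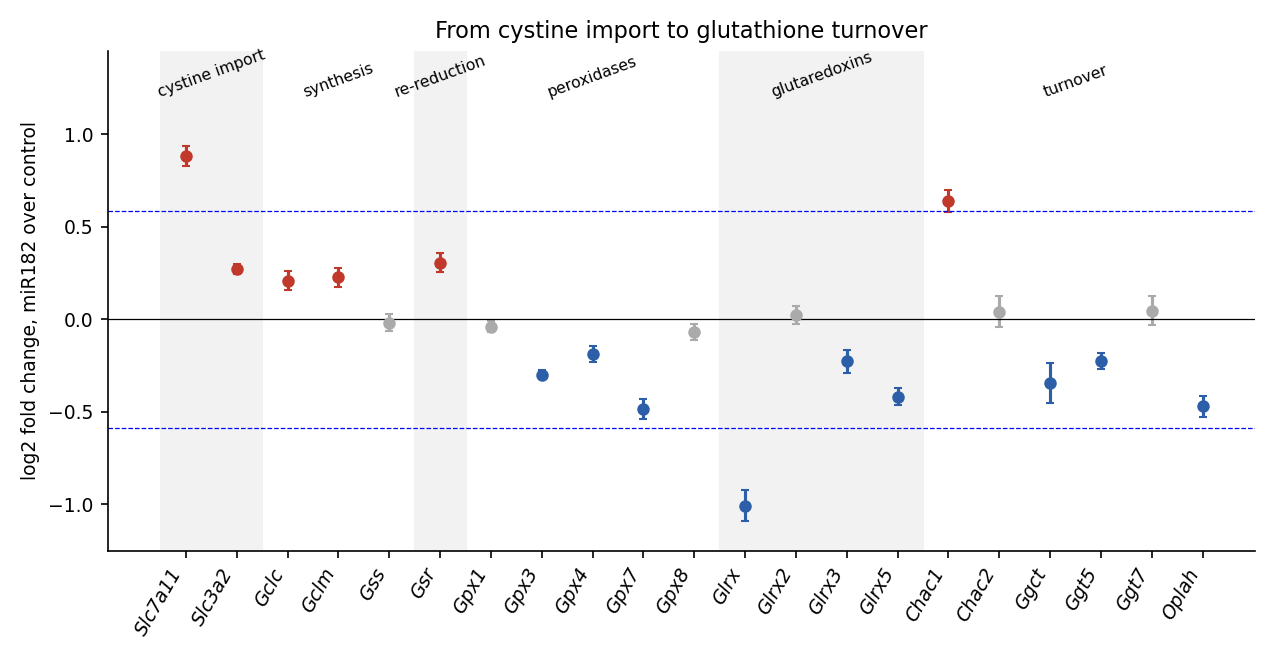
Log2 fold change, miR182 over control (y axis, bars ± SE), of 21 genes ordered from cystine import over glutathione synthesis and re-reduction to its use and turnover, with red for higher and blue for lower at adjusted p under 0.05, grey for genes that did not pass, and dashed lines at 1.5-fold. Import, the ligase subunits and the reductase are higher, the peroxidases and glutaredoxins that passed are lower, and Chac1 is the one turnover gene that is higher.

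The thioredoxin side was represented by a reductase and by sulfiredoxin. Txnrd1 (ENSMUSG00000020250, chr10:82833951-82897712), the cytosolic reductase that keeps thioredoxin reduced, was at 167.0, 164.1 and 165.9 CPM in control and at 194.3, 190.4 and 188.5 CPM in miR182. Its 3 values in each group were within a few percent of each other, and it was 1.15-fold higher (log2 fold change 0.21, SE 0.027, adjusted p = 2.75e-05, edgeR). It was also the gene among the 10 with a seed match in its 3′-UTR. Srxn1 (ENSMUSG00000032802, chr2:152105516-152111376), which repairs overoxidized peroxiredoxins, was at 127.1, 122.5 and 124.2 CPM in control and at 134.1, 134.0 and 128.3 CPM in miR182, so that the lowest miR182 sample was about 1 CPM above the highest control. The log2 fold change of 0.085 (SE 0.031) was the smallest that passed (adjusted p = 0.0353, edgeR). It no longer passed with upper-quartile scaling (adjusted p = 0.0698), with DESeq2 (adjusted p = 0.0617), or without control replicate 2 (adjusted p = 0.114), control replicate 3 (adjusted p = 0.0893), miR182 replicate 1 (adjusted p = 0.0816) or miR182 replicate 2 (adjusted p = 0.102).

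Hmox1 and Nqo1 are among the NRF2 targets most often read as reporters of the pathway. Hmox1 (ENSMUSG00000005413, chr8:75093621-75100589), the inducible oxygenase that opens heme into biliverdin, iron and carbon monoxide, was at 238.9, 238.5 and 235.1 CPM in control and at 308.5, 274.7 and 261.7 CPM in miR182. The controls were nearly level and the miR182 samples were spread, with replicate 1 highest. The change was 1.19-fold (log2 fold change 0.25, SE 0.046, adjusted p = 0.000585, edgeR), and without miR182 replicate 1 it was 0.18 on the log2 scale (adjusted p = 0.000123, edgeR). Nqo1 (ENSMUSG00000003849, chr8:107388225-107403206), the quinone reductase, was at 14.1, 14.4 and 13.6 CPM in control and at 15.9, 15.9 and 14.9 CPM in miR182. All 3 miR182 values were higher, but the log2 fold change of 0.15 (SE 0.063) did not pass (adjusted p = 0.066, edgeR), and it did not pass in any of the 13 other fits. With 355 to 465 reads per sample Nqo1 had the fewest reads of the 10 and the largest standard error. Set against Nfe2l2 within each sample, Nqo1 gave 0.0937 to 0.101 reads per read in control and 0.118 to 0.125 in miR182.

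The miR182 samples differed among themselves in these genes. Replicate 3 had the lowest value of the 3 for all 10 genes, Nfe2l2 included, replicate 1 the highest for 6 and replicate 2 the highest for 4. Over all genes tested replicate 3 was the lowest of the 3 in 33.3% and over the genes that rose in 37.5%. The CPM of the 10 genes summed to between 906 and 917 in control, and to 1059, 1016 and 978 in miR182 replicates 1, 2 and 3.

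Compared per length, as CPM per kilobase of exon in GENCODE M21, the level of Hmox1 was the highest of the 10 in control at 136, followed by Srxn1 at 44.2, Nfe2l2 at 38.4, Txnrd1 at 23.4 and Keap1 at 14.3. Gclm at 11.0, Gsr at 10.5, Gclc at 9.68 and Nqo1 at 9.04 formed a close group, in which Gclm and Gsr overlapped in their 3 values. Slc7a11 was lowest at 1.60 in control and 2.94 in miR182, computed over 13922 annotated exon bases, and a shorter transcript in use would raise this level in both groups alike. In miR182 the order was the same apart from Gclm and Gsr, which again overlapped and changed places. By these annotated lengths the gene with the largest change was the one with the lowest level per kilobase in both groups. Its place in the order depends on that length, and the transcript in use was not determined.

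The counts of the further lists are to be read beside the 23.2% of all genes tested that rose and the 23.5% that fell. Among 13 partners and regulators of NRF2, 4 rose (30.8%, near the share of all genes), 1 fell (2 without control replicate 1) and 8 did not pass, with a median log2 fold change of 0.04. Mafk and Maff, small MAF proteins that pair with NRF2, rose (log2 fold changes 0.49, SE 0.053, and 0.52, SE 0.065). Mafg, another small MAF, did not pass (0.097, SE 0.052, adjusted p = 0.144, edgeR). Gsk3b, a kinase that marks NRF2 for degradation independently of KEAP1, rose (0.28, SE 0.028). Mafk had 24.2, 24.1 and 23.2 CPM in control and 35.1, 32.3 and 32.7 CPM in miR182. Nfe2l1, the NRF2 relative that controls proteasome genes, fell from 494 ± 8.88 to 420 ± 7.43 CPM (SD, n = 3; log2 fold change -0.23, SE 0.028, adjusted p = 1.09e-05, edgeR), the same direction as Nfe2l2. Nfe2l3, another relative, went the other way and past 1.5-fold on only 9 to 40 reads per sample (log2 fold change 1.03, SE 0.27, adjusted p = 0.00581, edgeR). The repressors Bach1 and Bach2, the KEAP1 ligase subunit Cul3 and the adaptor Sqstm1, also an NRF2 target, did not pass.

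Further genes that are known as NRF2 targets fell more often than they rose. Of 25 listed, 20 could be tested, of which 3 rose, 10 fell and 7 did not pass, with a median log2 fold change of -0.079, and 3 fell past 1.5-fold. These 3 were glutathione transferases. Gsta4, which conjugates the lipid aldehyde 4-hydroxynonenal, fell from 21.5, 21.7 and 21.4 CPM to 12.0, 10.6 and 10.6 CPM (log2 fold change -0.96, SE 0.066, adjusted p = 4.51e-08, edgeR). Mgst1, a microsomal transferase, fell from 484 ± 17.3 to 317 ± 16.7 CPM (SD, n = 3; log2 fold change -0.61, SE 0.038, adjusted p = 1.75e-08, edgeR), and Mgst2 fell by 1.25 on the log2 scale (SE 0.14) on 50 to 129 reads. Abcc1, the exporter of glutathione conjugates, rose from 207 ± 5.99 to 259 ± 5.05 CPM (SD, n = 3; log2 fold change 0.32, SE 0.030, adjusted p = 9.05e-07, edgeR). Glutathione transferases and their kin form families of similar sequence, and reads that align to more than one place were kept apart from the genes.

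Of the 19 tested genes of glutathione synthesis, use and turnover outside the 10, 2 rose, 10 fell and 7 did not pass, with a median of -0.14. Chac1, which cleaves glutathione and is induced by amino acid stress, rose from 27.4, 32.0 and 31.0 CPM to 49.0, 47.3 and 44.6 CPM (log2 fold change 0.64, SE 0.060, adjusted p = 9.09e-07, edgeR). Glrx, a glutaredoxin that removes glutathione from proteins, fell from 17.0, 18.9 and 17.0 CPM to 7.71, 9.30 and 9.35 CPM (log2 fold change -1.01, SE 0.083, adjusted p = 2.99e-07, edgeR), and the secreted peroxidase Gpx3 fell by 0.30 on the log2 scale (SE 0.027). Of the 14 thioredoxin, peroxiredoxin and sestrin genes 1 rose (Txnrd2), 9 fell and 4 did not pass, with a median of -0.15, and 0 rose with DESeq2 or without control replicate 1, control replicate 3 or miR182 replicate 1. Here Txnip, the inhibitor of thioredoxin, fell from 301 ± 4.71 to 217 ± 10.8 CPM (SD, n = 3; log2 fold change -0.47, SE 0.035, adjusted p = 8.64e-08, edgeR). Mitochondrial Txn2 and Prdx3 fell by 0.34 (SE 0.029) and 0.29 (SE 0.032), and Prdx1, a substrate of sulfiredoxin, by 0.15 (SE 0.031) on the log2 scale.

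Gsr, Txnrd1 and Nqo1 all draw on NADPH, and most transcripts on a list for its supply were lower. Of the 11 genes on this list 8 fell, 1 rose (2 without miR182 replicate 1) and 2 did not pass, with a median of -0.25. The list also held Taldo1, Tkt and Pgls, enzymes of the pentose phosphate pathway that do not themselves make NADPH. Among these Taldo1 and Tkt fell (Tkt by 0.31 on the log2 scale, SE 0.039), and Pgls did not pass. Malic enzyme, Me1, which also serves fatty acid synthesis in fat cells, fell from 586, 665 and 559 CPM to 355, 395 and 423 CPM (log2 fold change -0.63, SE 0.062, adjusted p = 1.84e-06, edgeR), and Taldo1 of the pentose phosphate pathway fell by 0.27 (SE 0.033) and Aldh1l1 of the folate cycle by 0.33 (SE 0.037) on the log2 scale. The exception was Mthfd2, the mitochondrial folate enzyme, at 100.8, 98.5 and 102.1 CPM in control and 135.2, 127.4 and 127.2 CPM in miR182 (log2 fold change 0.37, SE 0.033, adjusted p = 6.03e-07, edgeR). Of the 7 tested superoxide dismutase and NADPH oxidase genes 1 rose, 2 fell and 4 did not pass, with a median of -0.12. Extracellular Sod3 rose by 0.31 on the log2 scale (SE 0.028), cytosolic Sod1 fell by 0.23 (SE 0.036) and mitochondrial Sod2 fell by 0.085 (SE 0.031, adjusted p = 0.0368, edgeR). The call for Sod2 was lost with DESeq2 (adjusted p = 0.114), with no filter (adjusted p = 0.0547) and with the replicate block (adjusted p = 0.0643), and without control replicate 1 (adjusted p = 0.133), control replicate 2 (adjusted p = 0.0934), miR182 replicate 1 (adjusted p = 0.0885) or miR182 replicate 2 (adjusted p = 0.135).

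Hmox1 was also set beside 11 genes of heme synthesis, heme breakdown and iron handling. Of these 3 rose (27.3%, near the share of all genes), 5 fell (45.5%, and 3 without control replicate 3) and 3 did not pass, with a median of -0.054. Slc40a1, the iron exporter ferroportin and a known NRF2 target, rose from 21.7, 18.6 and 20.9 CPM to 38.3, 36.9 and 32.2 CPM (log2 fold change 0.81, SE 0.073, adjusted p = 6.78e-07, edgeR), which put all miR182 samples above all controls and past 1.5-fold. The transferrin receptor Tfrc rose by 0.35 (SE 0.037). Fth1, the ferritin heavy chain, fell from 1324 ± 10.4 to 1129 ± 30.8 CPM (SD, n = 3; log2 fold change -0.23, SE 0.030, adjusted p = 2.35e-05, edgeR), and Blvrb, a biliverdin reductase, fell by 0.41 on the log2 scale (SE 0.056).

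Lists with a direction like that of the 10 genes were those of amino acid and immediate-early responses. Of 14 genes known as ATF4 targets, ATF4 included, 9 rose, 1 fell (Vldlr) and 4 did not pass, with a median of 0.17, and none passed 1.5-fold in either direction. Slc7a5, the large neutral amino acid transporter that shares the heavy chain Slc3a2, was at 243.6, 241.6 and 246.8 CPM in control and at 329.8, 320.5 and 320.6 CPM in miR182 (log2 fold change 0.41, SE 0.027, adjusted p = 3.05e-08, edgeR). Cars, the cysteinyl-tRNA synthetase, rose by 0.42 (SE 0.037), and the serine and glycine enzymes Psat1 and Shmt2 by 0.33 (SE 0.031) and 0.32 (SE 0.040). Atf4 itself rose by 0.12 on the log2 scale (SE 0.033, adjusted p = 0.00618, edgeR), whereas Ddit3 and Trib3, also on the list, did not pass. Slc7a11 and Chac1 are known targets of ATF4 as well as members of the lists above, so these groups are not separate by function. Of 11 stress and immediate-early genes 7 rose, 0 fell (1 without miR182 replicate 1) and 4 did not pass, with a median of 0.18, and the 4 that rose with the smallest p were Fos (0.42, SE 0.064), Ier2 (0.23, SE 0.041), Atf3 (0.49, SE 0.099) and Junb (0.24, SE 0.049). Of the 4 heat-shock genes on the list, Hsph1 rose by 0.18 on the log2 scale (SE 0.039, adjusted p = 0.00158, edgeR), and Hspa1a, Hspa1b and Dnajb1 did not pass.

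**Figure D4:**
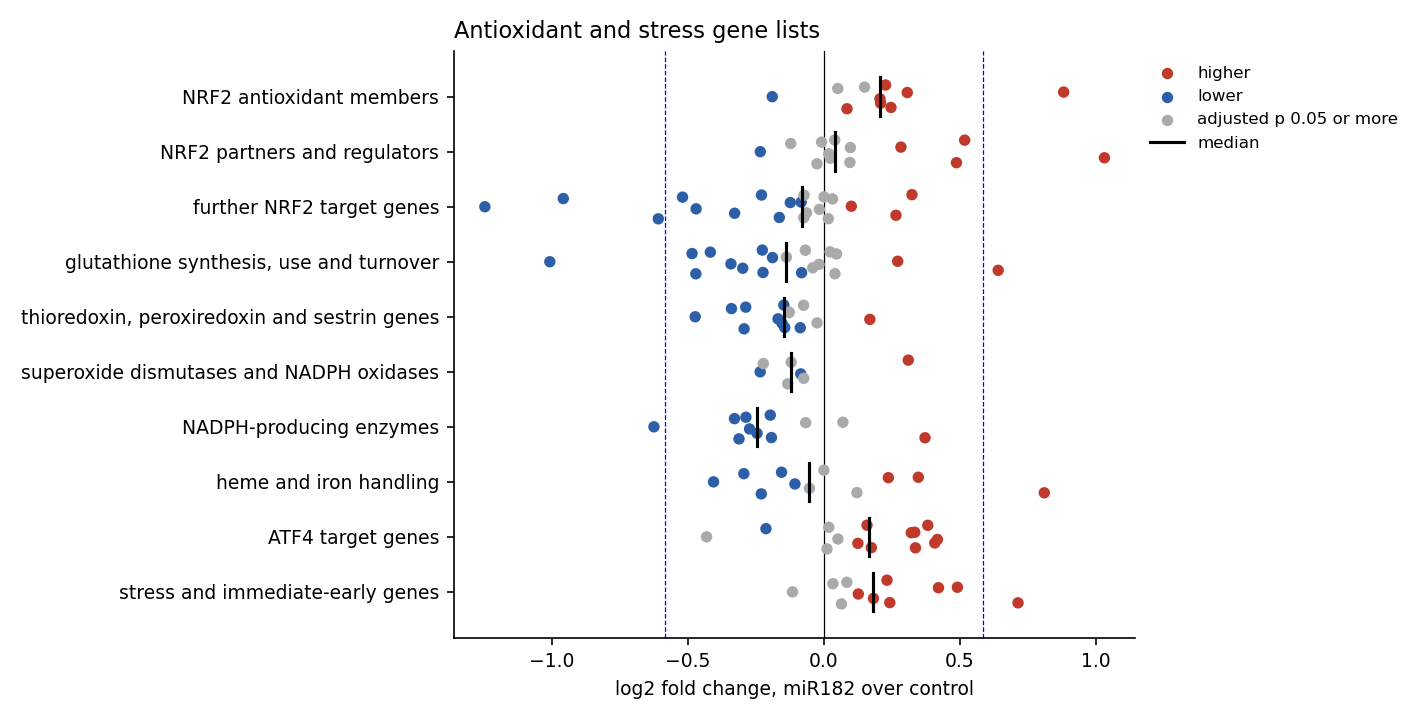
Log2 fold change, miR182 over control (x axis), of every tested gene of the NRF2 antioxidant set and of 9 further lists (rows), with red for higher and blue for lower at adjusted p under 0.05, grey for genes that did not pass, a black bar at each median, and dashed lines at 1.5-fold. The medians of the NRF2 antioxidant set, the ATF4 targets and the stress and immediate-early genes lie near 0.2. The median of the row labeled NADPH-producing enzymes, which also holds Taldo1, Tkt and Pgls, lies lowest.

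When all genes tested were compared with Slc7a11 over the 6 samples, each centred on its own mean log2 CPM, the 3 closest were Gcnt2, 2900026A02Rik and Bpgm, with root mean square distances of 0.059, 0.061 and 0.061. Gcnt2, a glycosyltransferase of blood group I antigen synthesis, went from 22.1 ± 0.323 to 39.0 ± 1.93 CPM (SD, n = 3). Bpgm, the enzyme of 2,3-bisphosphoglycerate synthesis, went from 17.0 ± 0.356 to 31.1 ± 0.933 CPM (SD, n = 3). This measure describes likeness over 6 samples in 2 groups and was computed with the fold change included.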

How the data were processed

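The authors deposited raw counts of reads per gene symbol, 1 list per sample, with no normalization. The submitters' processing notes name bcl2fastq, TopHat2, HTSeq and mm9. Versions, annotation and strand setting are not given in the sources used here. The 5 tally lines were left out (no feature 12.7% to 13.0%, ambiguous about 0.65% to 0.67%). These percentages are of the reads on genes, without a feature or ambiguous. They leave out the alignments that were not unique, which numbered 19363264 to 21673840 per sample. In R 4.3.3, edgeR 4.0.16 (TMM, filterByExpr with a minimum count of 10, glmQLFit, glmQLFTest, no block) tested 13117 genes, two-sided, with Benjamini-Hochberg adjustment over all of them, and was tested on simulated data. CPM uses TMM-scaled library sizes. Groups and replicate numbers come from the labels. Counts of replicates differed beyond sampling noise (chi-square per degree of freedom 2.08 to 6.90). The members and lists were chosen with earlier results of these data known. Named genes were all members, up to 4 genes per list with the smallest p among those past 0.05, and the 3 closest to Slc7a11 (pseudocount 0.1 CPM). Markers, Gss, Nfe2l3, Txnrd2, Tkt, Atf4, Vldlr, Hsph1 and genes that did not pass were named after their values were seen. Alternatives were DESeq2 1.42.0, voom (limma 3.58.1), 2 scalings, 2 filters, the replicate number as a block, glmTreat, and each sample left out. Sequences were matched by symbol to RefSeq GRCm38.p6 and GENCODE M21, since no mm9 genome was used here.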

Additional observations from a re-analysis of the deposited data

How the results depend on the processing

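Over 45 single genes and 13 alternatives, 572 of 585 values kept their direction and their side of the threshold, 13 no longer passed (those of Srxn1 and Sod2) and 0 turned round. Of the 10 NRF2 antioxidant genes, 6 to 7 rose and 1 fell whichever sample was left out. Against a 1.5-fold null (glmTreat) the members that passed went from 7 higher and 1 lower to 1 and 0, which follows from the stricter null. Under it the lists gave, higher and lower, 0 and 0 for NRF2 partners, thioredoxin, superoxide, NADPH, ATF4 and stress genes, 0 and 2 for further NRF2 targets, 0 and 1 for glutathione genes, and 1 and 0 for heme and iron. NRF2 partners that fell went from 1 to 2 with upper-quartile scaling and with limma-voom, and to between 1 and 2 with 1 sample left out. Thioredoxin genes that rose went from 1 to 0 with DESeq2, and to between 0 and 1 without 1 sample (0 without control 1, control 3 or miR182 1). Superoxide genes that fell went from 2 to 1 with DESeq2, with no filter and with the replicate block, and to between 1 and 3 without 1 sample (1 without control 2 or miR182 2). Genes of the NADPH list that rose numbered 1 to 2 (2 without miR182 1). Heme and iron genes that fell numbered 3 to 5 (3 without control 3), and stress genes that fell 0 to 1 (1 without miR182 1). The cause of these shifts was not tested. Same-numbered samples did not deviate together (correlations -0.185, -0.0436 and -0.0785). With 3 samples per group, each centred on its group mean, this cannot show whether the numbers pair samples by mouse or culture. With the replicate block 228 genes of all rose and 697 fell past 1.5-fold, beside 258 and 719, and of the members 7 rose and 1 fell. The smallest counts, at 355 to 465 reads for Nqo1, limit what can be resolved.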
